A study of Mus musculus with 16 samples.

Results

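Ccl5-negative cells are the lymph node CD8 T cells in which no transcript of the chemokine gene Ccl5 was counted. They were chosen from the deposited lymph node table by 3 conditions: at least 2000 UMIs (unique molecular identifiers, each counting 1 captured RNA molecule), 0 UMIs of Ccl5, and a UMI for at most 1 of the 6 genes Wnt10a, Nrn1, Cd200, Izumo1r, Ctla4 and Lag3. By this rule 411 cells were members, out of 3266 cells in the table and 2929 with at least 2000 UMIs (14.0% of the deep cells). They are compared with the 1757 Ccl5-high cells, which had at least 2000 UMIs and at least 5 UMIs of Ccl5. The rule used measured values of the same cells, so gene differences between the groups are given as a description of 1 library, with no test.

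All cells were CD8+CD44+ T cells sorted from the tumor-draining lymph node of 16-week-old C57BL/6 mice with melanoma-associated vitiligo, a loss of skin pigment that accompanies the immune response to a melanoma, 45 days after tumor surgery. T cell receptor (TCR) libraries were made from the lymph node and from the vitiligo-affected skin. Each tissue and assay was 1 library sequenced on 4 lanes, so both groups come from the same library. The number of mice, the tumor line and any further treatment are not given in the sources used here.

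CCL5 (RANTES) is a chemokine that attracts T cells and myeloid cells through chemokine receptors. Memory CD8 T cells hold Ccl5 mRNA before they meet antigen again, whereas naive CD8 T cells hold little of it. Naive and central memory T cells share a program of lymph node entry (CCR7), exit (S1PR1) and quiescence (TCF1, LEF1), while memory cells add the IL-15 receptor chain CD122, Ly6C, CXCR3 and cytotoxic genes under the factors T-bet and Eomes.

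Members were somewhat shallower than Ccl5-high cells. Their median was 4053 UMIs per cell (range 2002 to 10013), against 4811 UMIs (range 2014 to 12576) in Ccl5-high cells. The summed counts were 1722399 UMIs in Ccl5-negative cells and 8910590 UMIs in Ccl5-high cells. After every cell was thinned to 2000 UMIs, the median number of genes was 841 in Ccl5-negative and 818 in Ccl5-high cells. Cytosolic ribosomal protein genes took a median of 39.2% of UMIs in Ccl5-negative and 40.1% in Ccl5-high cells, and mitochondrially encoded genes 2.63% and 2.57% in the same order. Levels below are summed UMIs as counts per 1000000 UMIs (CPM), shares of cells with a UMI are after thinning to 2000 UMIs, and a log2 ratio is that of CPM in Ccl5-negative over Ccl5-high cells with 1 CPM added to both. All intervals are exact 95% intervals and cover counting error only.

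Ccl5 itself (mm10, chromosome 11, 83525778 to 83530518, minus strand) formed a continuum without a gap above 0. Ccl5-high cells had a median of 15 Ccl5 UMIs and a maximum of 291. Just outside the rule lay 281 cells with 1 Ccl5 UMI, part of the 693 cells with 1 to 4 UMIs. A further 38 cells without Ccl5 were left out because exactly 2 of the 6 genes were seen, among 68 with 2 or more. Just inside the depth limit were 16 members less than 200 UMIs above it, and just outside it were 11 cells at most 200 UMIs below it that met the other conditions. Of the members, 351 had none of the 6 genes seen and 60 had 1, most often Ctla4 in 20 cells and Izumo1r in 15 cells.

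**Figure D1:**
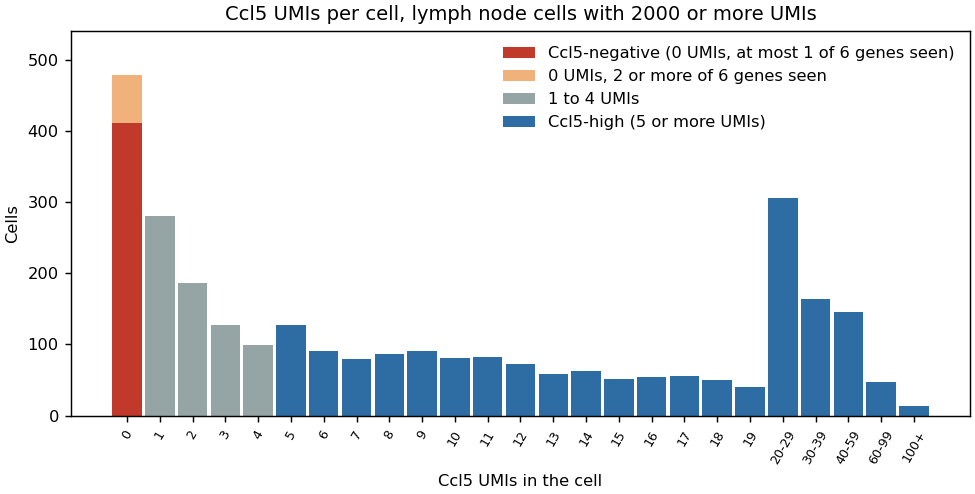
Number of lymph node cells with at least 2000 UMIs (vertical axis) by their Ccl5 UMIs (horizontal axis, with wider bins from 20 UMIs on). Stacked bars give the 411 Ccl5-negative cells and the 68 cells left out at 0 UMIs, the 693 cells at 1 to 4 UMIs and the 1757 Ccl5-high cells, and the counts show no gap between 0 and higher values.

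The name naive-like was borne out only in part by the marker genes. Of the markers of naive-like cells, Igfbp4, Dapl1, Ccr7, Lef1, Tcf7 and S1pr1 were higher in Ccl5-negative cells with intervals above 0, whereas Satb1 and Il7r were level. Of 7 memory markers other than Ccl5, 6 were lower with intervals below 0 and Cd44 was level, yet transcripts of all 7 were still counted in Ccl5-negative cells. The cells are therefore called by their rule and not by a cell state.

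Igfbp4, which encodes a secreted binding protein of insulin-like growth factors and marks resting T cells (chromosome 11, 99041244 to 99054392, plus strand), had the highest ratio of all markers. It stood at 59.8 CPM in Ccl5-negative cells and 10.4 CPM in Ccl5-high cells, a log2 ratio of 2.41 (2.10 to 2.94). A UMI was seen in 8.03% of Ccl5-negative cells and in 1.88% of Ccl5-high cells, so most members showed none. Dapl1, a gene linked to resting and stem-like T cells (chromosome 2, 59484653 to 59505020, plus strand), was at 322 CPM in Ccl5-negative and 111 CPM in Ccl5-high cells, a log2 ratio of 1.53 (1.39 to 1.69), and was seen in 37.2% and 16.4% of these cells. Both genes kept a log2 ratio above 1 in the members with none of the 6 genes seen, at 2.42 for Igfbp4 and 1.39 for Dapl1.

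The receptor and factors of the naive and central memory program differed less. Ccr7, the receptor that brings T cells into lymph nodes, was at 276 CPM in Ccl5-negative and 184 CPM in Ccl5-high cells (log2 ratio 0.59, 0.44 to 0.74). Lef1 was at 251 CPM in Ccl5-negative and 172 CPM in Ccl5-high cells (0.54, 0.39 to 0.70), and Tcf7, which encodes TCF1, at 344 CPM and 254 CPM (0.44, 0.31 to 0.57). These transcription factors maintain the capacity of T cells for self-renewal. Il7r, the IL-7 receptor chain that sustains both naive and memory cells, was at 492 CPM and 522 CPM (-0.09, -0.19 to 0.02). Klf2, a factor that drives S1pr1, also had a ratio near 0 (-0.01, -0.10 to 0.07).

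Among memory markers, Ly6c2 (chromosome 15, 75108158 to 75111970, minus strand), which encodes the Ly6C surface antigen of memory CD8 cells, was at 1662 CPM in Ccl5-negative and 2315 CPM in Ccl5-high cells (log2 ratio -0.48, -0.54 to -0.42). It was seen in 74.2% of Ccl5-negative cells (69.7 to 78.4) and in 92.7% of Ccl5-high cells (91.4 to 93.9). Nkg7, a cytotoxic granule protein, was at 999 CPM in Ccl5-negative and 1268 CPM in Ccl5-high cells and was seen in 80.5% and 89.0% of them. Il2rb, which encodes CD122, showed a wider gap, with 201 CPM in Ccl5-negative and 353 CPM in Ccl5-high cells (-0.81, -0.98 to -0.65). Tbx21, which encodes T-bet, had the lowest ratio of the memory markers, at 22.1 CPM in Ccl5-negative and 55.8 CPM in Ccl5-high cells (-1.30, -1.85 to -0.86), and Eomes was at 56.3 CPM and 95.7 CPM (-0.76, -1.08 to -0.46). Cxcr3, a receptor for interferon-induced chemokines, had a log2 ratio of -0.33 (-0.51 to -0.15), which became 0.05 among cells of 4000 to 6000 UMIs. Cd44, on which the cells were sorted, was at 63.9 CPM in Ccl5-negative and 70.5 CPM in Ccl5-high cells (-0.14, -0.45 to 0.15).

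Counted cell by cell, the markers overlapped widely between the groups. Ccl5-negative cells showed a mean of 2.39 of the 7 memory markers and Ccl5-high cells 3.08. None of the 7 was seen in 20 of 411 Ccl5-negative cells (4.87%, 3.00 to 7.42) and in 1 of 1757 Ccl5-high cells (0.0569%). At the other end, 61 of 411 Ccl5-negative cells (14.8%) and 550 of 1757 Ccl5-high cells (31.3%) showed 4 or more. Of the 9 naive-like markers, Ccl5-negative cells showed a mean of 3.34 and Ccl5-high cells 2.75.

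**Figure D2:**
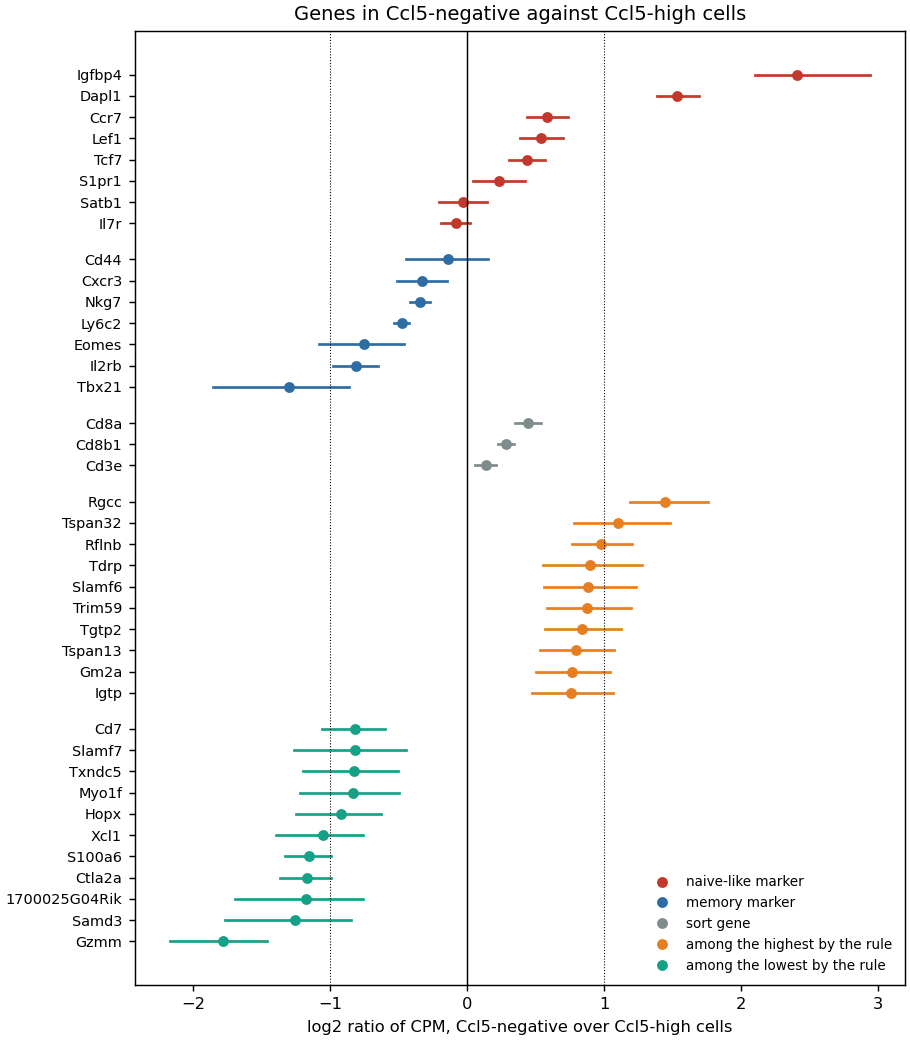
Log2 ratio of CPM in Ccl5-negative over Ccl5-high cells (horizontal axis) for marker genes, sort genes and the genes named by rule, with exact 95% counting intervals as bars and dotted lines at 2-fold. Igfbp4, Dapl1, Rgcc and Tspan32 lie above 2-fold, Satb1 and Il7r lie near 0, and Gzmm has the lowest ratio drawn, at -1.78.

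Few genes differed by 2-fold across the transcriptome. Of 8536 genes with at least 50 UMIs over both groups, 46 (0.539%) were at least 2-fold higher in Ccl5-negative cells and 106 (1.24%) at least 2-fold lower, or 1.78% either way. These totals include the rule genes Ctla4 among the higher and Ccl5 among the lower genes; without the rule genes they were 45 and 105. The interval excluded 0 for all 46 of the higher and 94 of the lower genes. Most were scarce: only 3 of the higher and 8 of the lower genes were seen in at least 10% of thinned cells of either group. The median log2 ratio of all 8536 genes was 0.03, and 56.1% lay above 0. Among the 351 members with none of the 6 genes seen, 31 genes were at least 2-fold higher and 114 at least 2-fold lower.

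The highest ratios among widely seen genes, after Dapl1, were those of Rgcc, a regulator of the cell cycle, and Tspan32, a tetraspanin of blood cells. Rgcc was at 92.3 CPM in Ccl5-negative and 33.2 CPM in Ccl5-high cells (log2 ratio 1.45, 1.19 to 1.76), and at 1.07 with none of the 6 genes seen. Tspan32 was at 56.9 CPM in Ccl5-negative and 25.9 CPM in Ccl5-high cells (1.10, 0.78 to 1.48), but at 0.32 among cells of 4000 to 6000 UMIs. Rflnb, which encodes refilin B, a filamin-binding protein, followed at 0.98, with 141 CPM in Ccl5-negative and 70.9 CPM in Ccl5-high cells. Slamf6, a receptor carried by stem-like T cells, was at 0.88, and at 0.49 with none of the 6 genes seen. Its level did not peak in members: it was 59.8 CPM there and 107 CPM in cells with 1 Ccl5 UMI. No condition on the 6 genes applied to the latter. Tdrp, Trim59, Tgtp2, Tspan13, Gm2a and Igtp lay between 0.76 and 0.90. Tgtp2 and Igtp encode interferon-inducible GTPases.

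Among widely seen genes with lower levels, Gzmm, the granule protease granzyme M, came first. It was at 41.2 CPM in Ccl5-negative and 144 CPM in Ccl5-high cells (log2 ratio -1.78, -2.17 to -1.46), and was seen in 6.08% and 20.03% of these cells. Ctla2a, an inhibitor of cysteine proteases found in activated T cells, was at 146 CPM in Ccl5-negative and 331 CPM in Ccl5-high cells (-1.17, -1.37 to -0.99). S100a6, a calcium-binding protein of effector and memory cells, was at 186 CPM and 415 CPM (-1.16, -1.33 to -0.996), and Xcl1, the chemokine that attracts cross-presenting dendritic cells, at 54.0 CPM and 113 CPM (-1.06, -1.39 to -0.76). Samd3 and 1700025G04Rik had ratios of -1.26 and -1.18. Hopx, a homeodomain protein of differentiated T cells, Myo1f, Txndc5, Slamf7 and Cd7 lay between -0.92 and -0.82.

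The naive and quiescence list was shifted upward and the memory, effector and cytotoxic lists downward. The lists described here share genes, so their counts are not independent: Tbx21, for example, is in the memory, effector and transcription factor lists. Of 30 naive and quiescence genes, 17 had intervals above 0 and 4 below, with a median log2 ratio of 0.29. Of all 8536 genes, 7.59% had intervals above 0 and 4.19% below. Igfbp4 and Dapl1 were at least 2-fold higher (2 of 30, beside 0.539% of all genes) and none was 2-fold lower. Besides the markers, Cd55, a complement regulator, was at 0.77, Smc4, a condensin subunit, at 0.60, Actn1 at 0.41 and Foxo1, a factor upstream of Klf2, at 0.39. The list was not uniform: Itm2a, a membrane protein of maturing T cells, was at 87.7 CPM in Ccl5-negative and 142 CPM in Ccl5-high cells (-0.69), and Txk, a T cell kinase, had a ratio of -0.31.

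Of 22 memory and IL-15 response genes, 19 had intervals below 0 and 1 above, beside 4.19% and 7.59% of all genes. Their median was -0.62. The 7 of 22 genes at least 2-fold lower, beside 1.24% of all genes, were Klrc2, Klrk1, Fasl, Ccr2, Tbx21, Xcl1 and Il18rap. The gene above 0 was Itga4, an integrin chain used in tissue entry, at 36.6 CPM in Ccl5-negative and 20.6 CPM in Ccl5-high cells (0.80). Of 18 effector genes 10 had intervals below 0 and 1 above, beside the same shares of all genes. Their median was -0.53, and 5 were at least 2-fold lower (Gzmb, Lgals3, Gzma, Tbx21 and S100a6), beside 1.24% of all genes. The exception was Capg, an actin-capping protein, at 0.58, which was at 0.27 with none of the 6 genes seen. Vim, Crip1 and S100a10, other genes of activated T cells, lay between -0.06 and 0.01.

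Cytotoxic granule genes split by kind. Of 14 measured, 11 had intervals below 0 and 5 were at least 2-fold lower, beside 4.19% and 1.24% of all genes. Their median was -0.46. Gzmb and Gzmk were nearly absent from members: Gzmb had 2 UMIs in all Ccl5-negative cells (1.16 CPM) against 228 UMIs in Ccl5-high cells (25.6 CPM), and Gzmk 2 UMIs against 79 UMIs. Gzma was at 8.13 CPM in Ccl5-negative and 42.1 CPM in Ccl5-high cells. Most Ccl5-high cells also lacked Gzmb and Gzma. After thinning, Gzmb was seen in 0.243% of Ccl5-negative and 2.11% of Ccl5-high cells. Gzma was seen in 1.95% and 2.45% of them, with overlapping intervals. The most Gzma UMIs in a thinned cell were 1 in Ccl5-negative and 22 in Ccl5-high cells. The gaps in CPM of Gzmb and Gzma thus describe a minority of Ccl5-high cells. Prf1, which encodes perforin, differed less, at 51.1 CPM in Ccl5-negative and 67.6 CPM in Ccl5-high cells (-0.40, -0.74 to -0.08), and Srgn, the proteoglycan core of the granules, was level at 0.06.

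NK cell receptors and their adaptors were lower in members. All 13 measured genes had intervals below 0 and 10 were at least 2-fold lower, beside 4.19% and 1.24% of all genes. The median log2 ratio was -2.80. It was -2.04 with the 3 genes at 0 UMIs put at their bound, and -0.76 with 10 CPM added to both groups. Klre1, a lectin-like receptor chain of NK cells, had 1 UMI in Ccl5-negative cells and 271 UMIs (30.4 CPM) in Ccl5-high cells. The Ly49 receptor gene Klra7 had 6 UMIs (3.48 CPM) in Ccl5-negative and 380 UMIs (42.6 CPM) in Ccl5-high cells, and Klra6 had 3 UMIs and 202 UMIs in the same order. Most Ccl5-high cells also lacked such genes: Klre1 was seen in 4.89% of them, Klra7 in 5.81%, Klrc1 in 6.09% and Klrk1 in 8.48%. Klre1 was seen in 1.68% of cells with 5 to 9 Ccl5 UMIs and 8.28% of those with 20 or more. The ratios thus describe a minority of Ccl5-high cells. Klra1, Klrc2 and Fcer1g were at 0 UMIs in Ccl5-negative cells, and against a floor of 3 UMIs over the group (1.74 CPM) they were at least 5.67-fold, 3.41-fold and 3.93-fold lower. Near-identical Ly49 and Klrc genes can share reads, so the split among them is uncertain. By contrast Klrd1, which encodes CD94, and Hcst, the adaptor DAP10, were close in level, with 201 CPM and 741 CPM in Ccl5-negative cells against 258 CPM and 875 CPM in Ccl5-high cells (-0.36 and -0.24).

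Lists of trafficking, residency and cytokine genes had medians near 0, but 3 of them held 2 to 4 genes at least 2-fold lower, beside 1.24% of all genes. Intervals above 0 were found for 5 homing, 4 receptor, 3 cytokine and 4 residency genes, beside 7.59% of all genes. Intervals below 0 were found for 1, 7, 3 and 5 genes in the same order, beside 4.19% of all genes. Of 16 lymph node homing genes none differed by 2-fold (median -0.02): the integrin gene Itgb7 was at 0.42 and Gpr183, an oxysterol receptor, at -0.55. Of 23 chemokine and cytokine receptor genes 3 were at least 2-fold lower (median -0.02), among them Ccr2, a receptor of inflammatory chemokines, at 12.2 CPM in Ccl5-negative and 31.7 CPM in Ccl5-high cells (-1.31, -2.09 to -0.74). Of 11 cytokines and chemokines 2 were at least 2-fold lower (median -0.02). One was Ccl4, at 16.8 CPM in Ccl5-negative and 54.1 CPM in Ccl5-high cells (-1.63). It was at 0.14 when Ccl5 was counted among 2000 UMIs per cell. Ltb, the lymphotoxin chain, was at 838 CPM in Ccl5-negative and 692 CPM in Ccl5-high cells (0.28). Of 20 residency genes 4 were at least 2-fold lower and 1, the rule gene Ctla4, higher (median -0.10). Itga1 and Cdh1 were lower, while Itgae, the CD103 chain, was at 52.8 CPM in Ccl5-negative and 32.7 CPM in Ccl5-high cells (0.68, 0.34 to 1.04) and Cd69 was level (-0.08).

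Interferon response genes leaned upward: 14 of 35 had intervals above 0, beside 7.59% of all genes, and none below, with a median of 0.19. Only Iigp1 passed 2-fold, at 12.8 CPM in Ccl5-negative and 4.71 CPM in Ccl5-high cells. The genes with higher levels included Igtp (0.76), Irgm1 (0.63), Isg20 (0.94) and Irf1 (0.36), while Ifit1, Ifit3, Isg15 and Rsad2, typical of a type I interferon response, lay between -0.25 and -0.01 with intervals that included 0. Ifi27l2a was at 622 CPM in Ccl5-negative and 377 CPM in Ccl5-high cells (0.72), and at 0.39 with none of the 6 genes seen.

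Thymic emigrant genes also leaned upward, with a median of 0.36 and 10 of 11 compared genes above 0, beside 56.1% of all genes. The list held 20 genes, and those not compared included Sox4, Cd24a, Rag1, Rag2 and Dntt. Of the 11 intervals 6 lay above 0, beside 7.59% of all genes, and none below. None of these genes passed 2-fold. Id3, an inhibitor of E proteins, was at 0.53 and Themis, a thymic selection protein, at 0.51. Of 31 TCR complex genes 11 had intervals above 0 and 2 below (median 0.11), beside 7.59% and 4.19% of all genes. The list summed to 11231 CPM in Ccl5-negative cells, and abundant genes have narrow intervals. The sorted coreceptor was higher in members: Cd8a was at 661 CPM in Ccl5-negative and 486 CPM in Ccl5-high cells (0.44, 0.35 to 0.54), Cd8b1 at 1600 CPM and 1316 CPM (0.28), and Cd3e at 950 CPM and 865 CPM (0.14). Of 42 transcription factors 1 was at least 2-fold higher, Myb, and 2 at least 2-fold lower, Tbx21 and Bhlhe40 (median 0.07). The shares of all genes were 0.539% and 1.24%. Of 19 inhibitory and costimulatory receptors 2 were at least 2-fold higher, beside 0.539% of all genes. These were Tnfrsf14 and the rule gene Ctla4 (list median 0.22), and Icos was at 0.96 and Cd96 at 0.61. Early activation genes had a median of 0.14 and TGF-beta response genes 0.12, with none past 2-fold.

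Housekeeping lists had medians close to 0. They were -0.02 over 87 cytosolic ribosomal protein genes, 0.01 over 86 nuclear respiratory chain genes, 0.05 over 47 proteasome genes, 0.02 over 13 mitochondrially encoded genes, -0.05 over 18 cell cycle genes, -0.01 over 14 glycolysis genes, -0.0037 over 12 lipid genes, 0.02 over 13 dissociation stress genes and 0.0017 over 16 histone and chromatin genes. None of these genes differed by 2-fold. Of the ribosomal protein genes, 24 of 87 had intervals below 0 and 7 above, beside 4.19% and 7.59% of all genes. They summed to 390128 CPM in Ccl5-negative cells, and abundant genes have narrow intervals.

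**Figure D3:**
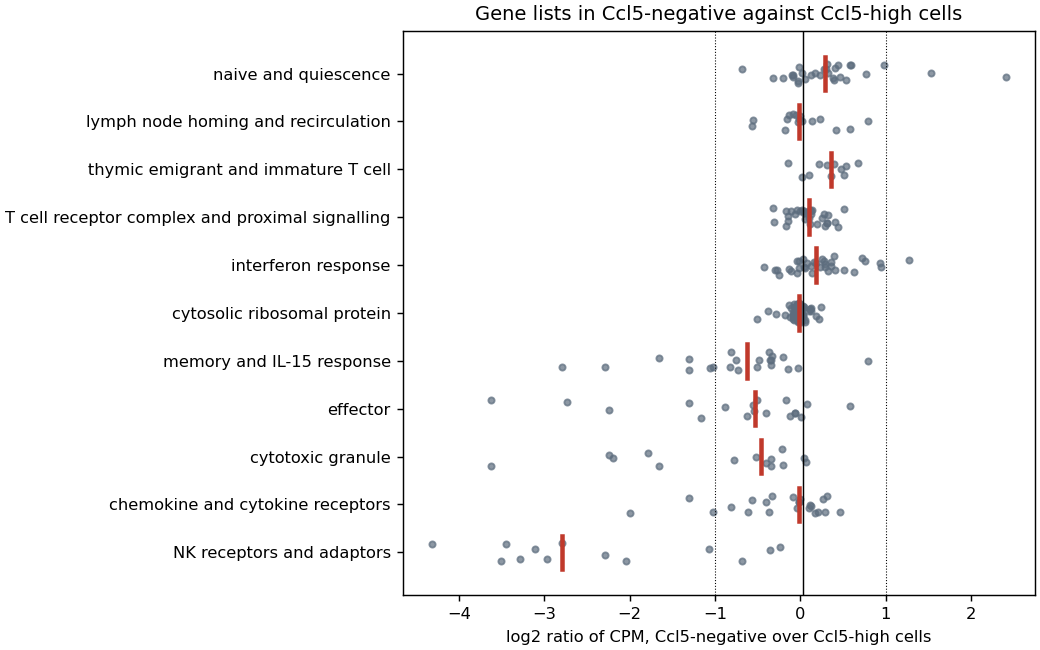
Log2 ratio of CPM in Ccl5-negative over Ccl5-high cells for each measured gene (grey points) of 11 lists, with the list median in red, the median of all genes as a solid line and 2-fold as dotted lines. The NK receptor list is centred at -2.80, the memory, effector and cytotoxic lists lie between -0.62 and -0.46, and the naive and quiescence list is centred at 0.29.

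Markers of B and myeloid cells were counted in both groups. Over all UMIs, 53.8% of Ccl5-negative and 57.9% of Ccl5-high cells had a UMI of Cd79b, Ighm or Lyz2. Cd4, Foxp3, Cd79a and the erythroid list were not analysed here. The 6 tested B cell genes had a median of 0.06, and the whole B cell list summed to 578 CPM in Ccl5-negative and 520 CPM in Ccl5-high cells. Ighm, the IgM heavy chain gene of B cells, was seen in 26.5% of Ccl5-negative and 27.9% of Ccl5-high cells. Cd74, which encodes the MHC class II invariant chain, was at 36.6 CPM in Ccl5-negative and 10.8 CPM in Ccl5-high cells (1.67), but 1 member held 42 of the 63 member UMIs, and with none of the 6 genes seen the ratio was -0.88. The myeloid list summed to 228 CPM in Ccl5-negative and 226 CPM in Ccl5-high cells, with Fcer1g at 0 UMIs in the Ccl5-negative cells. The plasma cell gene Xbp1 was at 0.08 and the dendritic cell gene Bst2 at 0.12.

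T cell lists of other lineages moved more, and the genes compared in them did not include Cd4 or Foxp3. The CD4 T cell list summed to 103 CPM in Ccl5-negative and 58.6 CPM in Ccl5-high cells (median 0.98 over 4 genes, among them the rule gene Ctla4, and 0.96 without it). The regulatory T cell list summed to 181 CPM in Ccl5-negative and 136 CPM in Ccl5-high cells (median 0.45 over 4 genes, 0.32 without Ctla4, and -0.10 with none of the 6 genes seen). The gamma delta T cell list summed to 9.87 CPM in Ccl5-negative and 49.2 CPM in Ccl5-high cells, with Trgv2 and Cd163l1 both at least 2-fold lower. The NK list summed to 67.9 CPM in Ccl5-negative and 149 CPM in Ccl5-high cells (median -2.24 over 3 genes, -1.97 with Fcer1g at its bound). Of the stromal and endothelial list only Pecam1, a gene that naive T cells also express, was analysed, at 36.6 CPM in Ccl5-negative and 19.2 CPM in Ccl5-high cells. The part of these other lineages in the differences was not tested.

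Between the groups, levels of some genes but not all were graded with Ccl5. The bin at 0 UMIs held members only, without the 68 cells left out for 2 or more of the 6 genes. No such condition applied to the other bins. Dapl1 was at 322 CPM in members, 296 CPM at 1 UMI, 235 CPM at 2 to 4, 145 CPM at 5 to 9, 120 CPM at 10 to 19 and 81.5 CPM at 20 or more. Igfbp4 followed the same order, at 59.8, 33.8, 31.5, 14.3, 10.5 and 7.98 CPM over the same 6 bins. Il2rb ran the other way, from 201 CPM at 0 UMIs through 212, 286, 310 and 346 to 386 CPM at 20 or more. Cells with 1 Ccl5 UMI thus lay nearer to members than to cells with 20 or more for Dapl1 and Il2rb. Klre1 was at 0.581 CPM at 0 UMIs, 2.36 CPM at 1 UMI, 4.73 CPM at 2 to 4 and 48.4 CPM at 20 or more. Other genes were not graded throughout. Ly6c2 was at 1662 CPM at 0 UMIs, 2326 CPM at 5 to 9 and 2308 CPM at 20 or more. Tcf7 was at 344, 253 and 252 CPM in the same bins. Itgae was at 52.8 CPM at 0 UMIs, 23.4 CPM at 10 to 19 and 45.1 CPM at 20 or more. Il7r was at 492 CPM at 0 UMIs, 460 CPM at 2 to 4 and 560 CPM at 20 or more. Median depth also increased over the bins, from 4053 UMIs per cell at 0 to 4966 UMIs at 20 or more, and its part in the gradients was not tested.

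**Figure D4:**
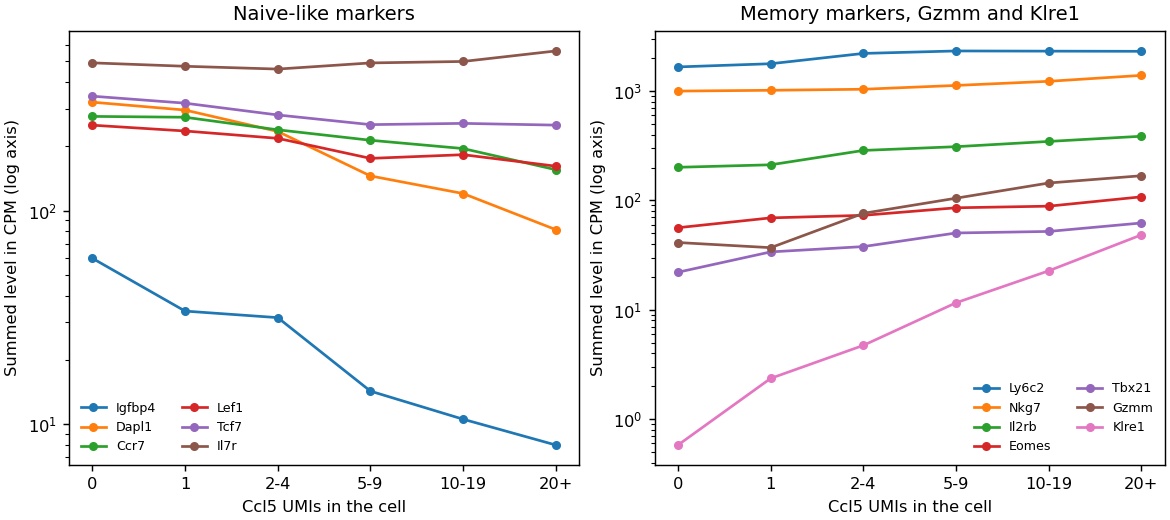
Summed level in CPM (log axis) of 6 naive-like markers (left) and of 5 memory markers with Gzmm and Klre1 (right) in cells grouped by their Ccl5 UMIs, the first group being the Ccl5-negative cells. Igfbp4 and Dapl1 are lower in each successive group, and Il2rb is higher in each.

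Members were not uniform among themselves. Among widely seen genes, the variance of thinned counts was highest relative to the mean for Gm42418 (42.4), a gene whose locus overlaps ribosomal RNA repeats. Next among protein-coding genes of immune function were Ifi27l2a, at 7.16 in Ccl5-negative cells, S100a6 at 5.40 and Ly6c2 at 2.97. The 41 members with most Ifi27l2a UMIs held 49.8% of them, and the same share was 70.6% for S100a6 and 32.3% for Ly6c2.

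Members were also split by whether a Ly6c2 UMI was seen after thinning. After thinning, 106 of 411 Ccl5-negative cells (25.8%) and 128 of 1757 Ccl5-high cells (7.29%) had no Ly6c2 UMI. The limit lay in a continuum, as 54 members had 1 UMI and 53 had 2. Before thinning 325 of 411 members had a Ly6c2 UMI, so some members counted as without it did carry it. Members without Ly6c2 also showed fewer cytotoxic and memory transcripts than members with it: Nkg7 was seen in 61.3% (51.4 to 70.6) of the 106 cells without and 87.2% (82.9 to 90.7) of the 305 cells with Ly6c2, Cxcr3 in 14.2% and 30.8%, and Gzmm in 0.943% and 7.87%. They more often showed Igfbp4, at 16.0% (9.63 to 24.4) without and 5.25% (3.03 to 8.38) with Ly6c2, and Tcf7, at 61.3% and 44.9%. Lef1, at 28.3% and 40.0%, went the other way, with overlapping intervals.

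Itgae, Id2, S100a6 and Rgcc were more frequent in the same members without Ly6c2. Itgae was seen in 21.7% (14.3 to 30.8) of members without and 5.57% (3.28 to 8.77) of members with Ly6c2, Id2, a regulator of effector differentiation, in 32.1% and 6.23%, and S100a6 in 31.1% and 11.8%. Rgcc was seen in 34.0% (25.0 to 43.8) and 10.5% (7.29 to 14.5). Cd69, an early activation and residency marker, was level, at 35.8% without and 37.0% with Ly6c2. Id2 and S100a6 were also more frequent in Ccl5-high cells without Ly6c2, at 52.3% and 61.7%, than in those with it, at 11.8% and 34.99%. Itgae was seen in 27.3% (19.8 to 35.9) of Ccl5-high cells without and 3.50% (2.66 to 4.51) of those with Ly6c2, and Rgcc in 21.9% (15.1 to 30.04) and 5.28% (4.24 to 6.48). Nkg7 was not lower there: 94.5% of Ccl5-high cells without Ly6c2 and 88.6% of those with it had a UMI.

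The 60 members with 1 of the 6 genes seen stood apart from the 351 with none. Their Ly6c2 level was 926 CPM, against 1781 CPM with none seen, and 35 of them had no Ly6c2 UMI after thinning. Ifi27l2a was at 1411 CPM with 1 gene seen and 493 CPM with none, Rgcc at 224 CPM and 70.9 CPM, Slamf6 at 149 CPM and 45.2 CPM, and Cd8a at 1050 CPM and 598 CPM. In the 38 cells without Ccl5 that were left out for exactly 2 of the genes, Rgcc was at 353 CPM, Slamf6 at 258 CPM, Cd8a at 1288 CPM and Ly6c2 at 332 CPM. The members with 1 gene seen thus lay between those with none and the cells left out for these 4 genes. Igfbp4 did not follow that order closely, at 58.1 CPM with 1 gene seen, 60.1 CPM with none and 67.8 CPM in the cells left out.

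**Figure D5:**
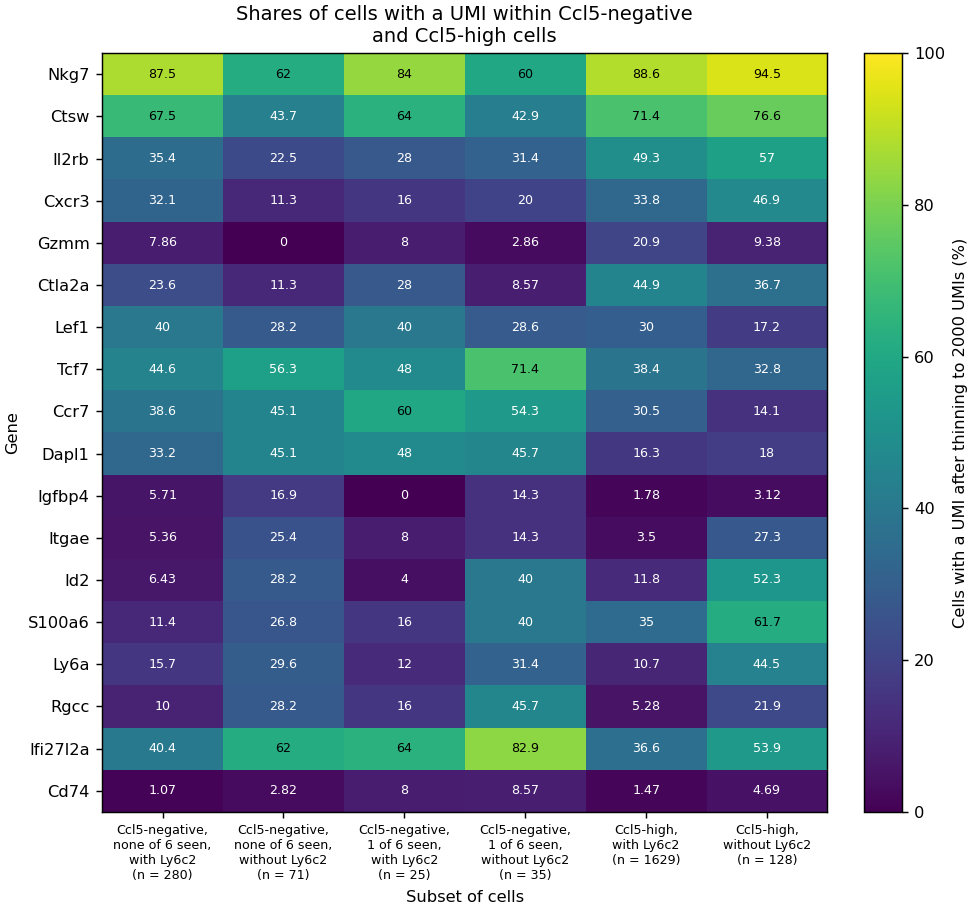
Share of cells with a UMI after thinning to 2000 UMIs (colour and printed percent) for 18 genes in 4 subsets of Ccl5-negative cells and 2 of Ccl5-high cells. Subsets without Ly6c2 have higher shares of Id2 and S100a6 in both groups, while Nkg7 is lower without Ly6c2 in the Ccl5-negative cells and not in the Ccl5-high cells.

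TCR sequences were a readout that the rule did not use. Cells were placed in 1 clone when the CDR3 nucleotides of both their TRB and their TRA chain were the same, the CDR3 being the loop at the V(D)J junction that contacts the antigen. A TRB sequence was found in 378 of 411 Ccl5-negative cells (92.0%) and 1623 of 1757 Ccl5-high cells (92.4%), with a median of 9 UMIs in both groups. Barcodes with 2 or more TRB sequences, which include droplets that held 2 cells, were 27 of 411 in Ccl5-negative cells (6.57%, 4.37 to 9.41) and 218 of 1757 in Ccl5-high cells (12.4%, 10.9 to 14.0). The rule bears on this share, because a droplet whose second cell had Ccl5 UMIs could not be a member. Among cells of 4000 to 6000 UMIs the shares were 5.65% (2.74 to 10.1) and 7.24% (5.65 to 9.13), with overlapping intervals. Without these barcodes 40 genes were at least 2-fold higher in Ccl5-negative cells and 101 at least 2-fold lower.

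Members were clonally diverse, as were Ccl5-high cells. The 295 Ccl5-negative cells with a clone belonged to 295 different clones, and the 1188 Ccl5-high cells to 1174 clones. Expanded clones, with at least 2 lymph node cells, held 10 of 295 Ccl5-negative cells (3.39%, 1.64 to 6.15) and 46 of 1188 Ccl5-high cells (3.87%, 2.85 to 5.13). These intervals overlap.

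None of the 295 Ccl5-negative cells belonged to a clone also found in skin, whereas 17 of 1188 Ccl5-high cells did (1.43%, 0.836 to 2.28). For the members the exact interval ran from 0 to 1.24% and overlapped that of Ccl5-high cells, and the floor of 3 cells was 1.02%. By the TRB sequence alone, 0 of 351 Ccl5-negative cells (0 to 1.05%) and 32 of 1405 Ccl5-high cells (2.28%, 1.56 to 3.20) had a sequence found in skin, and these intervals did not overlap. In every other setting for receptors the intervals overlapped. The Ccl5-high share was 0.550% (6 of 1091) with at least 3000 UMIs and 0.440% (3 of 682) at 4000 to 6000 UMIs. It was 0.823% (7 of 851) with contigs of 3 or more UMIs. In these settings 0 Ccl5-negative cells were in skin clones. Of the 12 barcodes present in both receptor tables, 1 belonged to a Ccl5-negative and 5 to Ccl5-high cells, and the counts of 0 and 17 cells were the same without them. The match by TRB sequence alone was not checked in this way. With cells of at least 1000 UMIs included, 2 of 323 Ccl5-negative cells (0.619%, 0.0751 to 2.22) and 26 of 1228 Ccl5-high cells (2.12%, 1.39 to 3.09) were in skin clones.

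Clone partners of members tended to be low in Ccl5. In the 10 expanded clones that held a member, 7 partners had at least 2000 UMIs: 6 had 1 to 4 Ccl5 UMIs, 1 had none but 2 or more of the 6 genes, and 0 were Ccl5-high (up to 41.0% by the exact interval). The 35 partners of Ccl5-high cells were Ccl5-high in 28 cases (80.0%) and had 1 to 4 UMIs in 7, with 0 Ccl5-negative. A pair of 2 Ccl5-high cells was counted from both cells, so the 35 are not independent cases and no interval is given. Among all 2009 cells of this depth with a clone, 14.7% were Ccl5-negative, 23.9% had 1 to 4 UMIs and 59.1% were Ccl5-high. Clones were few, and the 2 cells of a clone share their library.

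The 6 clones that joined a member to a cell with 1 to 4 Ccl5 UMIs are shown because they are the pairs on which this statement rests. Sequences are CDR3 coding strands read 5′ to 3′ from the deposited receptor table, from the TRB locus on chromosome 6 and the TRA locus on chromosome 14. Capitals mark the junction, taken as the bases not shared with at least 50% of the CDR3s of the same V or J segment.
Clone A, TRBV1 with TRBJ2-7: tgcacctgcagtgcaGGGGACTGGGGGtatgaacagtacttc
Clone A, TRAV9-1 with TRAJ48: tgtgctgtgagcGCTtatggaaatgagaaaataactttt
Clone B, TRBV16 with TRBJ2-1: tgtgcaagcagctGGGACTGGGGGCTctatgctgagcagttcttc
Clone B, TRAV14N-3 with TRAJ22: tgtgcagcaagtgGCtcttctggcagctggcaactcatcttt
Clone C, TRBV10 with TRBJ1-2: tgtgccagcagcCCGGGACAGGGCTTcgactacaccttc
Clone C, TRAV6N-7 with TRAJ26: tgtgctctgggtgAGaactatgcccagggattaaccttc
Clone D, TRBV19 with TRBJ2-1: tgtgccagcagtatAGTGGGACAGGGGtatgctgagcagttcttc
Clone D, TRAV6-4 with TRAJ16: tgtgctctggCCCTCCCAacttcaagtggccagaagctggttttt
Clone E, TRBV12-2+TRBV13-2 with TRBJ2-5: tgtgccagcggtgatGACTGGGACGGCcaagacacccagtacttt
Clone E, TRAV12D-3 with TRAJ5: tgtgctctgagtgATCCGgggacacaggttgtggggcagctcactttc
Clone F, TRBV29 with TRBJ2-7: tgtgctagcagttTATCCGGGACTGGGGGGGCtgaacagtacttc
Clone F, TRAV10D with TRAJ49: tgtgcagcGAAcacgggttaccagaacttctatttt

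In these pairs the second cell carried 3 Ccl5 UMIs in clone A, 2 in clone B, 4 in clone C and 1 in each of clones D, E and F. No V or J segment of either chain was used by more than 2 of the 6 clones, and their TRB junctions were 12 to 19 bases long.

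V and J segment use was close to that of Ccl5-high cells. The most frequent TRBV assignment of members was the joint call TRBV12-2 or TRBV13-2, in 28 of 295 Ccl5-negative clones (9.49%, 6.40 to 13.4) and 9.37% of 1174 Ccl5-high clones. TRBV16 followed at 8.47% of Ccl5-negative and 7.75% of Ccl5-high clones. Of 161 segments compared, 2 had intervals that did not overlap. TRAV13-1 was used by 5 of 295 Ccl5-negative clones (1.69%, 0.553 to 3.91) and by 60 of 1174 Ccl5-high clones (5.11%, 3.92 to 6.53). TRAJ56 was used by 0 of 295 Ccl5-negative clones (0 to 1.24%) and by 25 of 1174 Ccl5-high clones (2.13%, 1.38 to 3.13). With 161 segments set side by side, no adjustment was made for their number, and duplicated TRAV copies can share contigs. The pairs TRAV11 with TRAJ18 of invariant NKT cells and TRAV1 with TRAJ33 of MAIT cells were found in 0 of 295 Ccl5-negative and 0 of 1188 Ccl5-high cells. Mean CDR3 length was 13.9 ± 1.27 residues (SD over clones) for TRB and 13.5 ± 1.38 for TRA in Ccl5-negative cells, and 13.8 ± 1.37 and 13.6 ± 1.34 in Ccl5-high cells.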

How the data were processed

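The authors deposited raw UMI counts of each gene in each lymph node cell, with the 4 lanes of 1 library pooled and cells and genes already filtered, and receptor tables with UMI counts per contig. Bowtie, RSEM and mm10 appear in the submitters' processing notes with no role or version. Skin gene expression was not analysed here, and a few genes are not reported here.

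The gene list members, markers and comparisons were chosen with earlier results of these data known. UMIs were summed over each group and scaled to CPM without a further normalisation. Log2 ratios used a prior of 1 CPM, and genes with at least 50 UMIs over both groups were compared (8536 genes). "2-fold" means a log2 ratio of at least 1 in size. Gene intervals are exact conditional 95% intervals of the ratio of counts, and shares have exact Clopper-Pearson intervals. With 1 library and no replicate samples no p-value was computed, and cells were not treated as replicates. Thinning drew 2000 UMIs per cell without replacement. The ratio and interval code was tested on simulated data.

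Named genes were the 12 highest and 12 lowest ratios of genes seen in 10% or more of the thinned cells of the higher side, with the same direction after thinning and with cells weighted equally. Receptor, immunoglobulin, mitochondrial and ribosomal protein genes and rule genes were left out. To these were added the extremes of each list, the markers, the sort genes and the 10 most variable genes in members. A single gene quoted from within a list outside this rule was chosen after its values were seen. Receptor contigs were kept when productive, full-length and of high confidence (7423 of 9927). Clones needed exactly 1 TRB and 1 or 2 TRA sequences. Doublets were not called from expression, and barcodes with 2 or more TRB sequences were kept in the main comparison and left out in an alternative. Gene positions are from the GENCODE annotation of mm10, in which 9361 of 9428 gene names matched. Python 3.11.15, numpy 2.4.6, pandas 2.3.3, scipy 1.17.1 and matplotlib 3.10.9 were used.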

Additional observations from a re-analysis of the deposited data

How the results depend on the processing

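Depth, group limits, scaling, thinning, weighting, prior, gene filter and doublet barcodes were varied in 17 alternatives for expression and 8 for receptors. The naive and quiescence median stayed between 0.11 and 0.36 and the effector median between -0.64 and -0.28. Of the alternative values for the 152 single genes, 2243 stayed within their interval and 176 moved out of it. In all, 70 values of 31 genes differed in sign from the value reported, Cxcr3 among them. Of the genes at least 2-fold apart, 2 changed sign: Ccl4 (0.14 when Ccl5 was counted among 2000 UMIs, 0 against 3 or more, an alternative chosen after seeing the data) and Cd74 (-0.88 with none of the 6 genes seen). Of the 29 other list medians, 470 alternative values were close and 6 moved.

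Counts depended more on the settings. The rule gave 177 member cells at 4000 to 6000 UMIs, 190 without cells with B cell or myeloid UMIs (53.8% of Ccl5-negative and 57.9% of Ccl5-high cells had one, from Cd79b, Ighm and Lyz2) and 652 with Ccl5 counted among 2000 UMIs. Genes at least 2-fold higher numbered 29 at 4000 to 6000 UMIs, 98 with no condition on the 6 genes, 6 with a prior of 10 CPM, 89 with no filter on low counts and 1 with at least 500 UMIs. Genes at least 2-fold lower numbered 25 with a prior of 10 CPM, 161 with no filter, 9 with at least 500 UMIs and 65 with Ccl5 counted among 2000 UMIs. The drop with the larger prior and the stricter filter follows from their construction, since scarce genes are shrunk or removed. For the others the cause was not tested.

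The share of members in expanded clones was 6.55% by the TRB sequence alone, 1.20% with at least 3000 UMIs and 0.699% at 4000 to 6000 UMIs. No paired analysis was possible because the replicate numbers are sequencing lanes of 1 library and both groups of cells come from that library. Depth limits what can be said of scarce genes: 3 UMIs were 1.74 CPM in Ccl5-negative and 0.337 CPM in Ccl5-high cells.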
